A study of Mus musculus with 6 samples.

Results

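The interleukin-6 family signalling genes are the 10 mouse genes Il6, Lif, Il11, Il6ra, Il11ra1, Il6st, Osmr, Lifr, Stat3 and Socs3, taken by symbol from a table of 55335 genes, of which all 10 were found. They were measured by bulk RNA-seq in aorta from wild-type C57BL/6 mice with no named treatment, 3 young mice aged 6 weeks and 3 aged mice aged 6 months, all described as male, with 1 library per mouse. Of the 10 genes, 9 passed the filter on low counts and were among the 16612 genes tested for age, and Il6 did not pass. No layer of the vessel was separated as far as the labels and methods say, so for every value below fewer cells of a type and less RNA per cell cannot be told apart. Mice of 6 months are mature adults.

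Most cytokines of this family share the signalling chain gp130, which the gene Il6st encodes. Each cytokine first binds a receptor of its own, such as the interleukin-6 receptor (Il6ra) or the interleukin-11 receptor (Il11ra1), or, like leukaemia inhibitory factor (Lif) and oncostatin M, brings gp130 together with a second signalling chain (Lifr or Osmr). The joined chains activate Janus kinases, which phosphorylate the transcription factor STAT3. STAT3 then switches on target genes, among them Socs3, whose product binds gp130 and shuts the signal off. In the vessel wall these cytokines are known from inflammation and fibrosis, and interleukin-6 itself is made when NF-kappa B and C/EBP factors act on its promoter.

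The promoters of the ends of this circuit, the cytokine Il6 and the feedback gene Socs3, are shown because their level in the aorta is described below. The windows run from 250 bases before to 50 bases after a start site of RefSeq (GRCm38.p6), are written 5' to 3' on the strand of the gene, and were found for all 10 genes (13 windows). The Socs3 window, chr11:117969317-117969616 on the minus strand, has a match to the STAT motif TTCNNNGAA in capitals. The Il6 window, chr5:30012864-30013163 on the plus strand, has a match to the C/EBP motif TTGNGCAA and, closer to the start, one to the NF-kappa B motif GGGANTTTC in capitals.
Socs3: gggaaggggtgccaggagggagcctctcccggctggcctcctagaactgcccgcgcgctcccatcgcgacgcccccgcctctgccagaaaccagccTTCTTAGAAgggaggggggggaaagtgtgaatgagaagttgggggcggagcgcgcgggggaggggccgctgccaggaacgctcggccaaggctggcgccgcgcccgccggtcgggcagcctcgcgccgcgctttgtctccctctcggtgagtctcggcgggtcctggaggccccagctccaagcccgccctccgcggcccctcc
Il6: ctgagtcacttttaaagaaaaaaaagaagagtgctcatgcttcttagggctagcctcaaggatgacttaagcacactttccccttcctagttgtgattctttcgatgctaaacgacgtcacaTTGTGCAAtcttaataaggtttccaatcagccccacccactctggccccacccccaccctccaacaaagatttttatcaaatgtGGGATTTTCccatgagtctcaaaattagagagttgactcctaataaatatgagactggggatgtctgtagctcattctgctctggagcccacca

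On both strands of these windows, Socs3 was the only one of the 10 genes with the letters TTCNNNGAA, 154 bases before its start site. The same letters were in 8.3% of 32851 windows of this length and, counted by gene, in 9.55% of 27025 genes. In Il6 the C/EBP letters began 128 bases and the NF-kappa B letters 44 bases before the start, and 2.94% and 1.11% of all windows held them. The AP-1 motif TGANTCA was found in Il6, Lif, Il11 and Osmr, with no overlap with the other motifs. It was in 7.81% of all windows and 8.97% of all genes. The letters TATAAA, searched on the strand of the gene only and found there in 8.32% of all windows, were in none of the 13. GENCODE M21 places Socs3 on chromosome 11 of GRCm38 from 117966079 to 117970047, so a transcript there starts upstream of the RefSeq site, and Il6 on chromosome 5 from 30013114 to 30019981. These matches describe letters, and the RNA-seq does not show whether a factor was bound there.

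The libraries held between 31049632 and 45832185 counted reads. Smooth muscle markers, 8 genes such as Acta2 and Myh11, defined the tissue in CPM (counts scaled to a common library size after TMM normalization). They summed to 33410, 35560 and 41710 CPM in young replicates 1, 2 and 3 and 34280, 30320 and 28970 in aged replicates 1, 2 and 3. Of the 8, 0 had a positive log2 fold change (aged over young), beside 52.1% of all tested genes. Young replicate 1 stood apart. It had 14806 counts of Xist against 7 to 24 in the other 5 libraries and 5 counts of the Y-linked gene Uty against at least 209, which goes against the description of all mice as male, and the clock gene Arntl was at 2415 counts there against 26 to 307. Its cardiac muscle markers summed to 366 CPM against 83.5 to 97.4 elsewhere. Aged replicate 2 had the lowest fibroblast marker sum, though its single markers differed in direction. The sum of 8 of them was 4541, 4651 and 5800 CPM in young replicates 1, 2 and 3 and 9989, 3228 and 6988 in aged replicates 1, 2 and 3. In aged replicate 2, Col1a1, Col3a1, Lum and Pi16 lay below every young library, and Dcn and Col14a1 inside the young range. Pdgfra and Dpt, at 54.5 and 154 CPM, lay above every young library there. Macrophage markers (10 symbols, 11 genes) summed to 148, 109 and 110 CPM in young and 498, 150 and 328 in aged aorta. Endothelial markers summed to 1757 CPM in aged replicate 3 and to between 370 and 528 CPM elsewhere. Adipocyte markers (9 genes) summed to between 1081 and 4614 CPM, highest in aged replicate 2. Markers of T cells summed to at most 10.8 CPM and those of neutrophils to at most 5.06, with Ly6g at 0 throughout. The mitochondrial genome gave 14.9% to 21.2% of young and 23.1% to 30.4% of aged counts, and with its genes removed the log2 fold changes of Il6ra, Osmr and Stat3, described below, were 0.94, 0.87 and 0.59.

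To ask how much of each part of the circuit the aorta carries, levels were compared per length as FPKM (reads scaled for the length of the gene and the size of the library, the deposited unit). Il11ra1 and the shared chain Il6st were abundant, Il6ra was low, and the cytokines were near the limit of detection. Il11ra1 had the highest level, with a mean of 62.5 FPKM and a range of 48.0 to 84.0 over 6 libraries, above 96.9% of all tested genes. Il6st followed at 20.2 FPKM (12.2 to 24.0), above 90.2% of tested genes, and its range did not overlap that of Il11ra1. Stat3 was at 9.26 FPKM (6.64 to 12.5), a range that overlapped those of Il6st at its upper end and Socs3 at its lower end.

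Socs3, Lifr and Osmr lay close together at means of 3.72, 3.23 and 2.69 FPKM, near the middle of all tested genes, and their ranges overlapped. Il6ra lay well below them at 0.406 FPKM (0.209 to 0.698), above 16.7% of tested genes and with no overlap with Osmr. The cytokines Lif, Il11 and Il6 had means of 0.141, 0.119 and 0.114 FPKM, each above at most 5.92% of tested genes. Their ranges overlapped each other and that of Il6ra. The order in aged aorta differed from that in young aorta only where ranges overlapped, with Lifr above Socs3 and with Lif, Il6, Il11 in place of Il11, Lif, Il6.

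**Figure D1:**
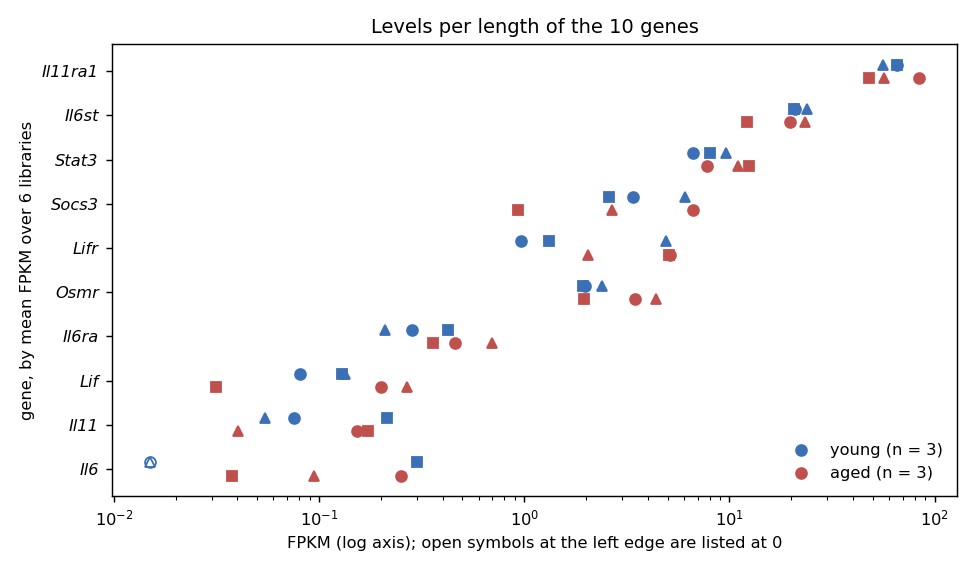
Level per length of the 10 genes in each library, in FPKM on a log axis, with young libraries in blue and aged libraries in red and the replicate given by the symbol (circle 1, square 2, triangle 3). Il11ra1 lies between 48.0 and 84.0 FPKM, the cytokines Lif, Il11 and Il6 lie under 0.31, and the open symbols mark the young libraries in which Il6 is listed at 0.

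The difference between Il6ra and Il6st was large in every library. Il6st was 73.5, 48.7 and 115 times Il6ra in FPKM in young replicates 1, 2 and 3, and 43.2, 34.1 and 33.6 times in aged replicates 1, 2 and 3. The aged libraries lay below all young ones in this ratio, which was chosen after its values were seen and was not tested. Il11ra1, by contrast, exceeded Il6st in every library, with Il6st at between 0.236 and 0.429 times its level.

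Age was then tested with edgeR's quasi-likelihood method on all 16612 genes. No gene of the family was called at an adjusted p below 0.05 (0 of 9 tested), and no gene of the whole table was (0 called, 0%). The lowest adjusted p in the table was 0.189, and 1723 genes had an unadjusted p below 0.05. By DESeq2 338 genes of the table were called and by limma on log2(FPKM + 1) 0, with 2667 at an unadjusted p below 0.05, and neither called a gene of the family. At an unadjusted p below 0.05, Il6ra, Osmr and Stat3 were higher in aged aorta (3 of 9) and 0 of 9 were lower, beside 5.56% of all tested genes higher and 4.82% lower. The 9 genes had a positive log2 fold change (aged over young) in 7 cases, beside 52.1% of all tested genes, with a median of 0.59 against 0.02 over all genes. In no gene of the family did the CPM of the groups separate without overlap, which 7.74% of tested genes did with aged higher and 8.78% with aged lower. None of Il6ra, Osmr and Stat3 kept an unadjusted p below 0.05 without young replicate 1, without aged replicate 3, or by limma on FPKM.

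**Figure D2:**
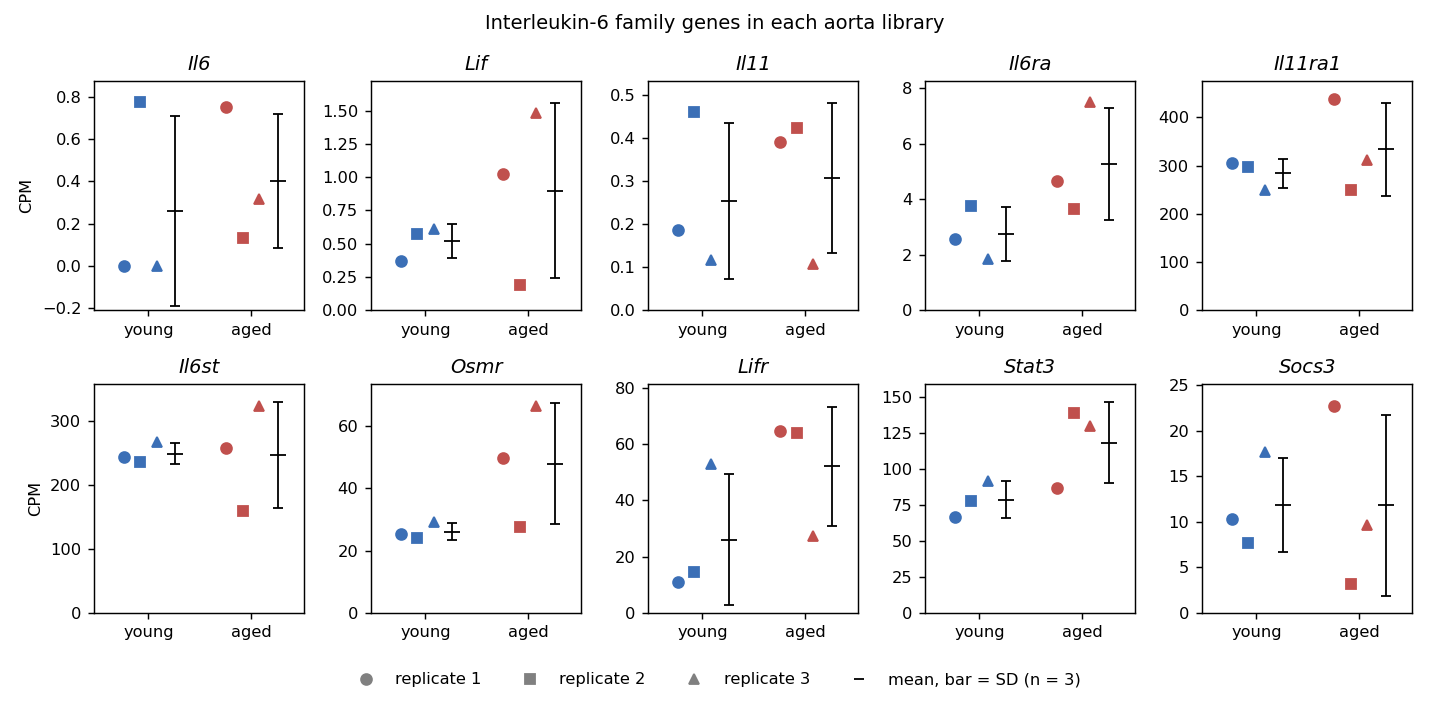
CPM of the 10 genes in each library, young in blue and aged in red, with 1 panel and a linear axis per gene and the mean with its SD (n = 3) beside each group. The groups overlap in every panel, and aged replicate 2 is the lowest aged library for Il6, Lif, Il6ra, Osmr, Il6st, Il11ra1 and Socs3.

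Among the cytokines, Il6 was read 0, 27 and 0 times in young replicates 1 to 3 and 25, 5 and 9 times in aged replicates 1 to 3. The highest library was therefore a young one, and the young libraries at 0 allow up to 0.0619 and 0.0874 CPM (3 counts, counting error only). In CPM it was 0, 0.776 and 0 in young and 0.752, 0.133 and 0.319 in aged aorta, a difference of no detectable direction at this depth (exact two-sided permutation test, p = 0.6, where 3 against 3 cannot go below 0.1).

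Lif, which signals through Lifr and gp130, had 18, 20 and 21 counts in young and 34, 7 and 42 in aged aorta. Replicates 1 and 3 of the aged mice lay above all young libraries and replicate 2 below them. The young mice averaged 0.519 ± 0.129 CPM and the aged mice 0.898 ± 0.659 CPM (SD, n = 3 each). The log2 fold change was 0.78 (standard error, SE, 0.76, edgeR adjusted p = 0.728). Il11, a cytokine studied in fibrosis, had 9, 16 and 4 counts in young and 13, 16 and 3 in aged aorta, so that the spread within each group covered the other. Its log2 fold change was 0.29 (SE 0.81, edgeR adjusted p = 0.914).

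Of the receptors that bind a cytokine without signalling themselves, Il6ra had 2.58, 3.76 and 1.84 CPM in young replicates 1, 2 and 3 and 4.66, 3.63 and 7.5 CPM in aged replicates 1, 2 and 3. Only aged replicate 2 fell inside the young range. The means were 2.73 ± 0.973 (SD, n = 3) and 5.27 ± 2.0 (SD, n = 3), or 0.95 higher on the log2 scale with a standard error of 0.40 (edgeR, adjusted p = 0.474). An exact two-sided permutation test gave p = 0.2. The macrophage marker sum was likewise lowest among the aged mice in replicate 2, at 150 CPM against 498 and 328. It was highest in aged replicate 1, while Il6ra was highest in aged replicate 3. The part of that sum in the Il6ra values was not tested. The log2 fold change of Il6ra ranged from 0.61 without aged replicate 3 to 1.26 without young replicate 2. Il6ra lies on chromosome 3 from 89864059 to 89913196 (GRCm38), and an antisense gene, Gm42809, shares 242 exonic bases with it but had at most 11 counts.

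Il11ra1 had 306, 298 and 250 CPM in young and 439, 250 and 312 CPM in aged aorta. Aged replicate 1 was the highest library and aged replicate 2 was level with the lowest young one. The log2 fold change was 0.23 (SE 0.23, edgeR adjusted p = 0.741), and it turned to -0.02 without aged replicate 1 and to -0.02 by limma on FPKM, which also moved the median of all genes to -0.12 or lower. In GENCODE M21, 46.3% of the 50-base stretches of Il11ra1 transcripts occur also in Gm13305, and part of these also in Il11ra2. Both genes are near-identical copies on chromosome 4, and reads that lie wholly in such stretches cannot be told apart. Summing the 3 copies gave a log2 fold change of 0.24.

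The shared chain gp130 had the smallest SD relative to its mean of the 10 genes in young aorta. Il6st had 243, 235 and 267 CPM in young and 258, 159 and 323 CPM in aged aorta, so that the aged libraries spread to both sides of the young ones. Means were 249 ± 16.6 (SD, n = 3) and 247 ± 82.7 (SD, n = 3), and the log2 fold change was -0.01 with a standard error of 0.26 (edgeR adjusted p = 0.992).

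Its partner Osmr, the second chain of the oncostatin M receptor, had 25.3, 23.9 and 29.1 CPM in young and 49.6, 27.6 and 66.3 CPM in aged aorta. Aged replicates 1 and 3 lay above every young library and aged replicate 2 among them. The means were 26.1 ± 2.70 (SD, n = 3) and 47.8 ± 19.4 (SD, n = 3), the log2 fold change being 0.87 (SE 0.31, edgeR adjusted p = 0.421, exact permutation p = 0.2). Without aged replicate 2 the fold change was 1.15 with an adjusted p of 0.0661 from edgeR, the lowest adjusted p of any gene of the family under the settings tried, and without aged replicate 3 it was 0.57. The fibroblast marker sum was likewise above all young libraries in aged replicates 1 and 3, at 9989 and 6988 CPM, and was 3228 CPM in aged replicate 2. It was highest in aged replicate 1, while Osmr was highest in aged replicate 3. There Col3a1 lay below every young library, Col1a1 inside the young range and the other fibroblast markers above it. The endothelial marker sum was 410, 370 and 1757 CPM in aged replicates 1, 2 and 3. The part of either sum in the Osmr values was not tested.

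Lifr, the other partner of gp130, had 10.9, 14.5 and 52.9 CPM in young and 64.8, 64.0 and 27.5 CPM in aged aorta. Young replicate 3 was close to the aged libraries, and aged replicate 3 lay below young replicate 3. The log2 fold change was 1.00 (SE 0.63, edgeR adjusted p = 0.605). Without young replicate 3 it was 2.04 with an adjusted p of 0.745 from edgeR (unadjusted p = 0.00267), and with the other libraries left out in turn it was between 0.64 and 1.31. Lifr and Osmr did not keep a fixed proportion. Lifr was 0.483, 0.682 and 2.04 times Osmr in FPKM in the young libraries and 1.47, 2.60 and 0.465 times in the aged libraries.

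**Figure D3:**
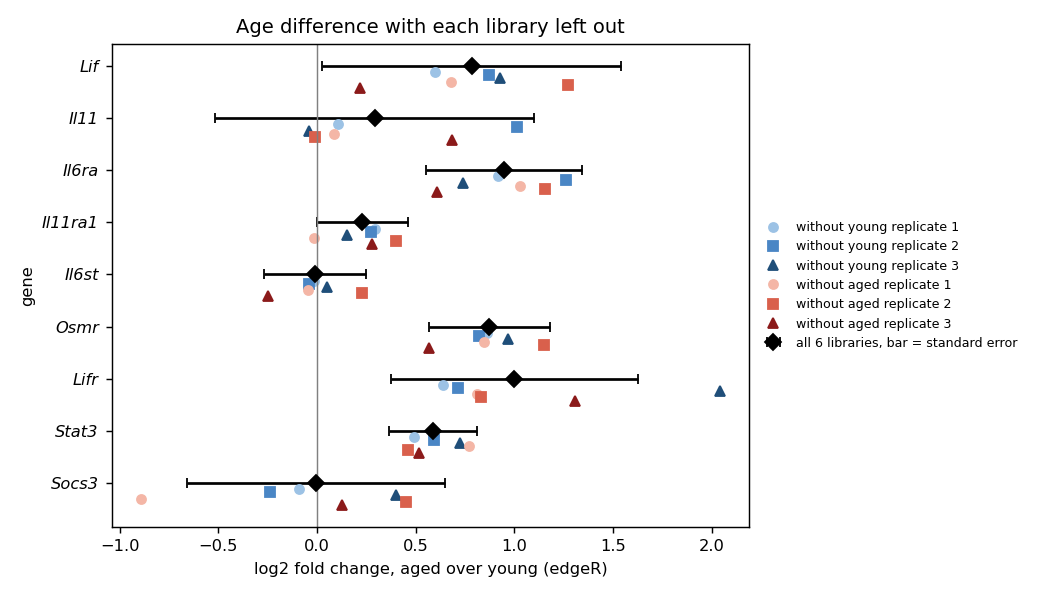
Log2 fold change of aged over young aorta for the 9 genes tested, with all 6 libraries (black diamond, bar for the standard error) and with each library left out in turn (coloured symbols). The values of Il6ra, Osmr, Stat3, Lifr and Lif stay above 0, those of Il11, Il11ra1, Il6st and Socs3 fall on both sides of it, and Lifr reaches 2.04 without young replicate 3.

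Of the genes inside the cell, Stat3 had 66.4, 78.1 and 91.9 CPM in young and 86.6, 139 and 130 CPM in aged aorta. Aged replicates 2 and 3 lay above all young libraries, and aged replicate 1 below young replicate 3. Means were 78.8 ± 12.8 (SD, n = 3) and 118 ± 28.0 (SD, n = 3), with the log2 fold change at 0.59 (SE 0.23, edgeR adjusted p = 0.448, exact permutation p = 0.2). It was the gene of the family whose fold change moved least over the libraries left out in relation to its size, between 0.46 and 0.77. Stat3 shares 72 exonic bases with Stat5a on the opposite strand, a gene with 498 to 1174 counts.

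Socs3, the feedback inhibitor, had 10.3, 7.64 and 17.6 CPM in young and 22.7, 3.18 and 9.59 CPM in aged aorta. The aged group held both the highest and the lowest library. Means were 11.9 ± 5.17 (SD, n = 3) and 11.8 ± 9.94 (SD, n = 3), and the log2 fold change was -0.004 with a standard error of 0.65 (edgeR adjusted p = 0.999). It ran from -0.90 without aged replicate 1 to 0.45 without aged replicate 2. Socs3 did not follow Stat3. The ratio of Socs3 to Stat3 in FPKM was 0.508, 0.322 and 0.629 in young and 0.861, 0.0747 and 0.242 in aged aorta, and aged replicate 2 had the highest Stat3 and the lowest Socs3 of all libraries.

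As a description over 6 points that share library and tissue make-up, Pearson's r of log2 CPM was 0.87 for Lif with Il6st and with Osmr, 0.78 for Il6ra with Osmr and 0.72 for Il6st with Socs3. It was -0.49 for Stat3 with Socs3 and -0.67 for Il11 with Il6st. Among all tested genes, those whose pattern was most like Il6st were Itpripl2, Rnf157 and Selenoi, with the highest r at 0.999. For Stat3 they were Etv6, Wipi1 and Gm9847 (highest r 0.988), for Socs3 Cavin3, Ggcx and Shf (0.992) and for Il6 Cgrrf1, Selenos and Gm34294 (0.986). Between 18 and 37 genes had an r above 0.95 with each of these 4 genes.

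The rest of the pathway was read from lists of its parts. Of 10 other cytokines of the family, 6 were tested. Clcf1, a cytokine of the family that acts through Cntfr, gp130 and Lifr, was at 15.9 ± 4.81 and 13.9 ± 7.97 CPM (SD, n = 3 each), with -0.19 as log2 fold change. Ebi3 and Il12a, subunits of related cytokines, stayed at or below 0.575 CPM in every library. Oncostatin M (Osm), the ligand of Osmr, was not tested, with 3, 9 and 0 counts in young and 15, 0 and 11 in aged aorta.

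Among 4 other receptors, 3 were tested and 1 had an unadjusted p below 0.05 with aged higher, beside 5.56% of all tested genes. This was Il27ra, which pairs with gp130 for interleukin-27, with 1.40 ± 0.256 CPM in young and 3.35 ± 2.05 CPM in aged aorta (SD, n = 3 each) with the log2 fold change at 1.25 (edgeR adjusted p = 0.449). Cntfr, the receptor of ciliary neurotrophic factor, had a log2 fold change of 0.73 and Il11ra2 of 0.41. In GENCODE M21, 100% of the 50-base stretches of Il11ra2 transcripts occur also in Gm13305, so reads of these copies cannot be told apart. Of 9 kinases and other STATs tested, 1 had an unadjusted p below 0.05 with aged lower, beside 4.82% of all tested genes. Tyk2 was at 44.3 ± 7.17 CPM in young and 31.7 ± 3.87 in aged aorta (SD, n = 3 each), the log2 fold change being -0.48 (edgeR adjusted p = 0.438). Its groups did not overlap, as in 8.78% of all tested genes with aged lower. Jak1, the kinase most tied to gp130, was at 84.0 ± 6.96 and 95.9 ± 6.32 CPM (SD, n = 3 each), the log2 fold change being 0.19, or under 0 by limma on FPKM (edgeR adjusted p = 0.662). The fold changes of Jak3 and Stat6 were 0.78 and -0.08.

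Negative regulators differed in direction. Of 17 tested, 3 had an unadjusted p below 0.05 with aged higher and 2 with aged lower. Over all tested genes these shares were 5.56% and 4.82%. Socs2, a feedback gene of cytokines that act through STAT5, was at 40.3 ± 8.24 CPM in young and 76.6 ± 26.6 in aged aorta (SD, n = 3 each), the log2 fold change being 0.93 (edgeR adjusted p = 0.390). Cish, another STAT5 feedback gene, named after its values were seen, had a log2 fold change of 1.27, while the third higher gene, Sh2b3, had 0.42. The inhibitors of activated STATs Pias3 and Pias4 both had a log2 fold change of -0.59, with adjusted p of 0.377 and 0.396 from edgeR. The phosphatase Ptpn11, which docks on gp130, was at 144 ± 1.98 and 139 ± 11.9 CPM (SD, n = 3 each). Of 4 genes of receptor shedding none had an unadjusted p below 0.05, with log2 fold changes of 0.28 for Adam10 and 0.13 for Adam17, both under 0 by limma on FPKM, and -0.23 for Rhbdf1.

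Of 39 known STAT3 target genes, 33 were tested, and 14 had an unadjusted p below 0.05 with aged higher and 2 with aged lower, beside 5.56% and 4.82% of all tested genes. The 2 lower genes were Hif1a and Fgb, with log2 fold changes of -0.42 and -2.56. The groups did not overlap for Hif1a. Fgb had 6.91 CPM in young replicate 3 and at most 1.40 CPM in any other library. By sign alone, 24 of the 33 were higher and 9 lower. The median log2 fold change of the list was 0.74 against 0.02 over all genes. The groups separated without overlap in 7 genes with aged higher and 1 with aged lower, beside 7.74% and 8.78% of all tested genes. No gene of the list was called by edgeR, and the list was written with earlier results of these data known. Many of these genes are also targets of other factors and are expressed by fibroblasts or macrophages.

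The cell cycle gene Ccnd1 had 8.61, 11 and 11 CPM in young and 49.3, 23.8 and 45.2 CPM in aged aorta. Cebpd, a transcription factor of the acute phase, had 14.0, 17.9 and 19.6 CPM in young and 70.9, 37.9 and 70.7 CPM in aged aorta, and its relative Cebpb had 5.49, 5.52 and 4.90 against 16, 34.1 and 14.8 CPM. All 3 genes had every aged library above every young one. Their log2 fold changes were 1.95, 1.80 and 2.03, with adjusted p of 0.259, 0.259 and 0.306 from edgeR. DESeq2 called all 3 genes, and so did edgeR without aged replicate 2, with adjusted p of 0.0272, 0.0302 and 0.0407 for Ccnd1, Cebpd and Cebpb. No other alternative called any gene. With another library left out, the edgeR adjusted p of these genes reached 0.679, 0.679 and 0.765 in the same order.

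Other targets with large fold changes were named after their values were seen, and of these Timp1, Serpina3n and Lbp were uneven between the aged mice. Timp1, an inhibitor of matrix proteases, stayed between 11.7 and 14.3 CPM in young aorta and had 94.0, 10.7 and 58.5 CPM in aged replicates 1, 2 and 3. Serpina3n, an acute-phase protease inhibitor, had 161, 7.63 and 68.1 CPM in aged and between 6.56 and 17.8 in young aorta. In both genes and in Lbp, aged replicate 2 lay inside or just below the young range, and its fibroblast marker sum of 3228 CPM lay below the young range too. The part of that sum in these values was not tested. Junb had a log2 fold change of 1.22 and Lcn2 of 3.12, the latter with at most 2.23 CPM in any library. In both, every aged library lay above every young one, as in 7.74% of all tested genes. DESeq2 called Timp1, Lbp, Junb and Lcn2, with adjusted p of 0.0336, 0.0419, 0.0131 and 0.00663, and did not call Serpina3n (0.181). Without aged replicate 2 edgeR called Timp1 and Lbp, with adjusted p of 0.0302 and 0.0465, and the other 3 genes had adjusted p between 0.0536 and 0.172. No other alternative called any of these genes. With another library left out, the edgeR adjusted p reached 0.817 for Timp1 and 0.798 for Lbp. The most abundant targets, Mcl1 and Fos, had log2 fold changes of -0.08 and -0.34.

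**Figure D4:**
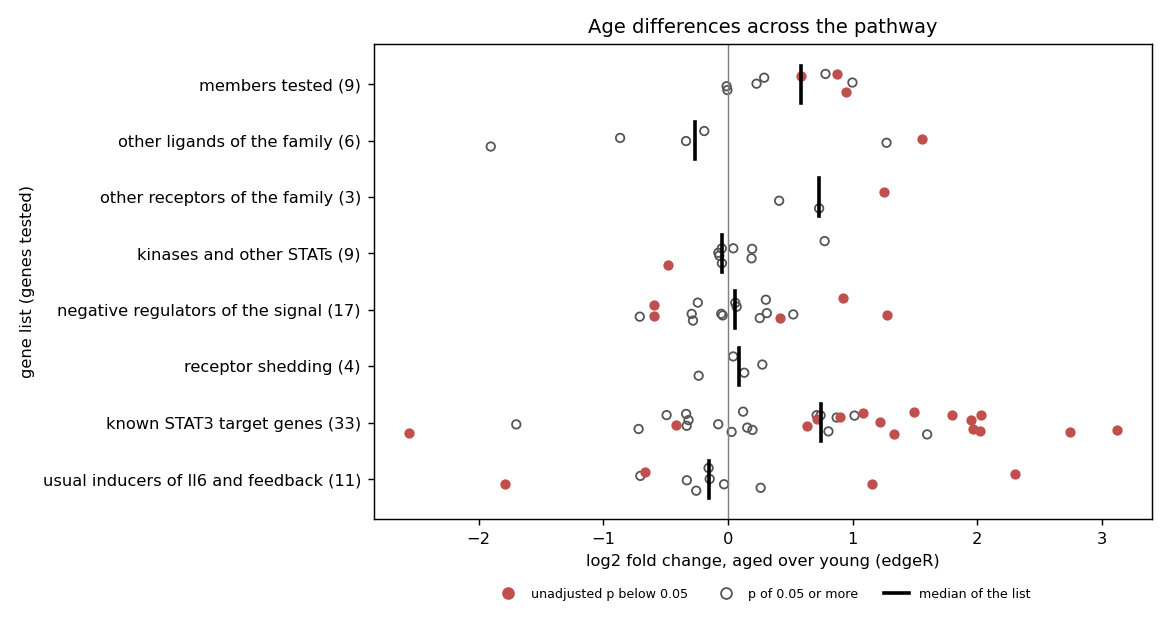
Log2 fold change of aged over young aorta (edgeR) for each tested gene of the family and of 7 lists of the pathway, with filled symbols for an unadjusted p below 0.05, open symbols for the others and a bar at the median of each list. No gene shown was called at an adjusted p below 0.05, and the medians are 0.59 for the family and 0.74 for STAT3 target genes.

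The genes that usually induce Il6 or restrain it were mixed. Of 13 listed, 11 were tested. Of these, 2 had an unadjusted p below 0.05 with aged higher and 2 with aged lower, beside 5.56% and 4.82% of all tested genes. Il1b, the interleukin-1 that induces Il6, had 4, 2 and 11 counts in young and 14, 17 and 40 in aged aorta (log2 fold change 2.30, edgeR adjusted p = 0.448). Nfkbia, the inhibitor that NF-kappa B itself switches on, was at 38.5 ± 9.72 and 85.8 ± 32.6 CPM (SD, n = 3 each), the log2 fold change being 1.16 (edgeR adjusted p = 0.382). Atf3, a repressor of Il6 that is also a stress gene, was at 70.5 ± 20.9 and 20.4 ± 13.0 CPM (SD, n = 3 each), the log2 fold change being -1.79 (edgeR adjusted p = 0.377, called by DESeq2 with 0.0176). The second lower gene, Nfkbiz, which helps NF-kappa B at the Il6 promoter, had a log2 fold change of -0.67. Zfp36, which destabilises cytokine RNA, and Egr1 had log2 fold changes of -0.03 and -0.70. Tnf and Il1a had at most 8 and 2 counts in any library and were not tested.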

How the data were processed

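RNA of 6 mouse aorta libraries (3 young, 3 aged) was read from 2 tables. The authors deposited whole-number read counts per gene, without normalization, and FPKM, which also corrects for the length of each gene and the size of each library. The labels name build mm10, and the aligner and counting tool are not given in the sources used here. In R 4.3.3, edgeR 4.0.16 was used to remove genes of low counts (filterByExpr with a minimum count of 10 and a total of 15), to scale by TMM and to fit quasi-likelihood models to all genes. P-values were adjusted by Benjamini-Hochberg and called below 0.05. The standard error is the absolute log2 fold change divided by the square root of F. Exact two-sided permutation tests used log2(CPM + 0.5). The fit was tested on simulated counts.

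The genes of the family and all lists were chosen with earlier results of these data known. Besides the family, the genes named are the 3 with the smallest p and the 2 of highest mean CPM in each list and the 3 most alike to Il6, Il6st, Stat3 and Socs3, and others are named as chosen later or complete a small count, and 1 gene that this rule names is not reported here. Alternatives were RLE size factors, 2 other filters, DESeq2 1.42.0, limma 3.58.1 on log2(FPKM + 1) or log2(FPKM + 0.1), a robust fit, a replicate block and each library left out. Removal of mitochondrial genes, which took 14.9% to 30.4% of counts, and summing of Il11ra copies were added after seeing the data. Replicate libraries differed beyond counting noise. Replicate numbers showed correlations of deviations of 0.079, 0.134 and 0.128 between groups, so they were not taken to pair the mice. P-values set the age difference against the spread between these mice. The young group in them includes young replicate 1 with its outlying Xist and Arntl counts.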

Additional observations from a re-analysis of the deposited data

How the results depend on the processing

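No gene of the family was called under any of the 16 alternatives. The number of genes called over the whole table was 338 by DESeq2, 0 under every other alternative with all 6 libraries, and with libraries left out it ranged from 0 to 110 (110 when aged replicate 2 was omitted). The causes were not tested. With the replicate block 0 genes were called, 1782 had an unadjusted p below 0.05, and Lifr was at 1.35. That block changed no call. The count of 3 family genes at an unadjusted p below 0.05 became 0 by limma with either pseudocount, 0 to 3 with a library left out and 2 with the replicate block. Limma on FPKM moved the median of all genes to -0.12 (pseudocount 1) and -0.19 (0.1).

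Of the genes named, these changed sign in log2 fold change. By limma with pseudocounts of 1 and 0.1, Il11ra1 was at -0.023 and -0.024, Jak1 at -0.027 and -0.029, Adam10 at -0.022 and -0.034, and Adam17 at -0.029 and -0.025. Zfp36 was at 0.044 with the replicate block. With a library left out, the ranges were -0.041 to 1.01 for Il11, -0.251 to 0.227 for Il6st, -0.018 to 0.401 for Il11ra1, -0.895 to 0.449 for Socs3, -0.457 to 0.223 for Clcf1, -0.121 to 0.542 for Adam10, -0.086 to 0.459 for Adam17, -0.437 to 0.012 for Rhbdf1, -1.44 to 0.102 for Fos, -0.225 to 0.011 for Mcl1 and -0.292 to 0.302 for Zfp36. With at least 10 counts in every library, Lif and Il11 gave no value. Hif1a and Fgb were not followed under the alternatives, and all other fold changes of named genes kept their sign. Counts of at most 42 per library limit Il6, Lif and Il11, whose direction could not be read at this depth.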
